A study of Sus scrofa with 9 samples.

Results

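The 9 genes described here act on the formation and removal of fibrin in the vessel wall. They were F3, TFPI, THBD, PROCR, F13A1, PLAT, PLAU, PLAUR and SERPINE2. They were chosen by name for their known roles, with earlier results of these data known. All 9 were found, each in a single row, among the 21357 genes of the deposited table. The libraries came from the abdominal aorta of Tibetan minipigs, a small pig breed, in 3 groups of 3 libraries. NC pigs had eaten a normal diet for 24 weeks, H8 pigs a high-fat diet for 8 weeks (labelled hypercholesterolemia) and H24 pigs the same kind of diet for 24 weeks (labelled atherosclerosis). The study describes the animals of the 24-week groups as males, bought at 3 to 4 months of age, and their high-fat/cholesterol (HFC) diet as basal feed with shortening oil, cholesterol and egg yolk powder. H8 had no control group of its own at 8 weeks, so diet and time on study (or age) cannot be told apart in H8/NC. In H24/H8 the same holds for diet duration and age.

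Coagulation in a vessel starts when tissue factor, the product of F3, meets blood and binds factor VII, and it ends in thrombin, which turns fibrinogen into fibrin. TFPI blocks the first step, while thrombomodulin (THBD) and the endothelial protein C receptor (PROCR) turn thrombin from a clotting enzyme into an activator of protein C, an anticoagulant. Factor XIII, whose catalytic A chain is encoded by F13A1, crosslinks fibrin. Fibrin is dissolved by plasmin, which tissue-type (PLAT) and urokinase-type (PLAU) plasminogen activators release from plasminogen; PLAUR holds urokinase on the cell surface and SERPINE2 (protease nexin 1) inhibits urokinase, plasmin and thrombin.

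Levels are given in FPKM, fragments scaled to exon length and to the number of mapped reads, as the authors computed them. FPKM is per length, so it serves here to set one gene beside another. Differences were tested on the estimated counts of the same table with edgeR, and a gene was called up- or down-regulated where the log2 fold change passed 1 in either direction and the p-value before adjustment was under 0.05, the thresholds the study used. Adjusted p-values (Benjamini-Hochberg over all genes tested) are given beside them, and no member had one under 0.05 in edgeR's quasi-likelihood test of any comparison, against 0% of all genes in H24/NC, 0.0279% in H8/NC and 0.0135% in H24/H8. At an unadjusted p under 0.05 without the fold threshold, the members that passed were the same ones that were called, 4 in H24/NC, 3 in H8/NC and 3 in H24/H8, against 13.9%, 14.8% and 13.7% of all genes. DESeq2 gave an adjusted p under 0.05 to 4, 2 and 3 members in the same order, against 6.77%, 5.66% and 4.79% of all genes. The libraries of NC and H24 came from separate pigs according to the study's methods. For H8 the labels only number the replicates, so the p-values of its comparisons measure the spread between these libraries, which may be technical.

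The libraries held 44094263 to 75787978 counts each, and 3 counts, taken as the smallest signal, came to between 0.0396 and 0.0680 CPM (counts scaled to the library total), which covers counting error only. Smooth muscle markers, the defining genes of the aortic media, summed to between 10730 and 14660 FPKM in the NC and H8 libraries, and endothelial markers to between 94.1 and 234.7 FPKM in all 9. H24 replicate 3 stood apart from every other library. Its correlation with them over genes was 0.921 or less, its smooth muscle markers summed to 1803 FPKM against 8538 and 12384 in H24 replicates 1 and 2, and its macrophage markers to 2192 FPKM against 334.7 and 203.4. In whole vessel wall, fewer cells of a type and less RNA per cell cannot be told apart. H8 replicate 2 had the highest sum of fibroblast markers, at 7645 FPKM. Calls of the named genes that end, or called values that move by more than 1.5 times, without one of these 2 libraries are given with and without it. Some of the adipocyte markers were lower in H8. ADIPOQ and PLIN1, which define fat cells, were at 4.44 to 14.6 and 3.59 to 16.5 FPKM in NC and at no more than 0.106 and 0.0823 FPKM in H8. FABP4 overlapped, at 75.1 to 121.8 FPKM in NC and 47.9 to 139.3 FPKM in H8. LPL overlapped too, at 2.91 to 6.49 and 2.63 to 9.06 FPKM. The summed adipocyte markers were at 94.5 to 163.6 FPKM in NC and 55.5 to 142.9 FPKM in H8. In H8/NC, 3 of the 5 adipocyte markers tested were called down-regulated, 1 of them past the adjusted threshold, with a median log2 fold change of -1.64. In H24, ADIPOQ was at 7.24, 0.0705 and 0.416 FPKM in replicates 1 to 3. In H24/NC, 2 of the 6 adipocyte markers tested were called up-regulated and none down-regulated. The labels give the tissue as aorta, while their extraction protocol speaks of an adipose type, and the part of fat in the member results was not tested.

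In H24/NC, 4 of the 9 members were called up-regulated and none was called down-regulated. They were SERPINE2, PLAUR, PLAU and F13A1, which are an inhibitor, a receptor and an enzyme of the plasminogen system and the fibrin crosslinker. Among all 14828 genes tested in this comparison, 9.95% were called up-regulated and 1.52% down-regulated, 11.5% in all. In H8/NC, 3 of the 8 members tested were called up-regulated, namely F3, PLAU and PLAUR, against 5.11% of all genes, and none was called down-regulated, against 2.27% (7.39% in either direction). In H24/H8, SERPINE2 and F13A1 were called up-regulated, against 7.22% of all genes, and F3 was called down-regulated, against 3.05% (10.3% in either direction). The FPKM of 5 members did not overlap and was higher in H24 than in NC, against 12.8% of all genes, and no member was lower without overlap, against 7.8%. In H8/NC 2 members were higher without overlap, against 6.91%, and none lower, against 15.9%. In H24/H8 3 members were higher without overlap, against 15.5%, and 1 lower, against 6.31%. Both comparisons with NC use the same 3 NC libraries, so they are not independent of each other.

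**Figure D1:**
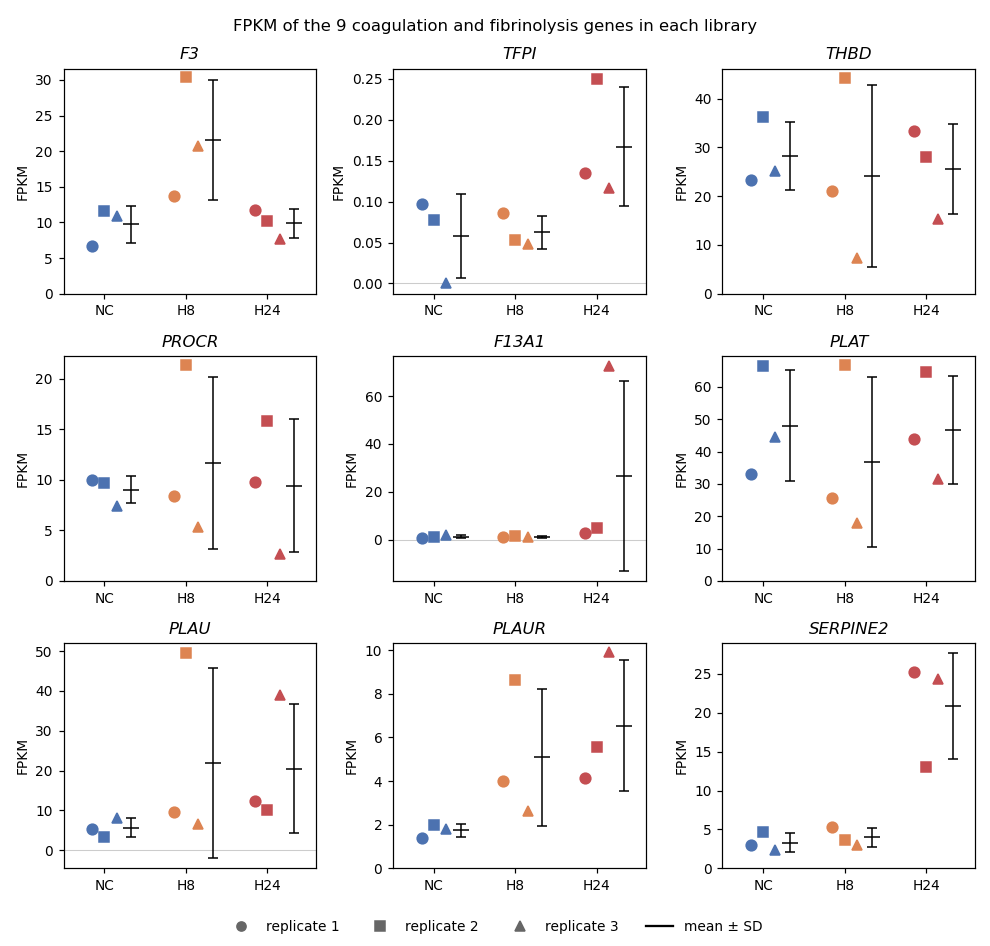
FPKM (y axis, linear, a scale per panel) of each of the 9 genes in the 3 NC, 3 H8 and 3 H24 libraries, with symbols for replicates and a black bar for mean ± SD (n = 3). The 3 H24 libraries lie above all NC and H8 libraries for SERPINE2, TFPI and F13A1, the 3 H8 libraries lie above all others for F3, and 1 H24 library at 72.5 FPKM carries the H24 mean of F13A1.

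The order of the members by mean FPKM was headed by PLAT and closed by TFPI in every group. In NC the means ran from 48.0 FPKM for PLAT and 28.2 FPKM for THBD down to 1.73 for PLAUR, 1.31 for F13A1 and 0.0581 for TFPI. The neighbours PLAT and THBD overlapped in NC, as did F3 and PROCR, PROCR and PLAU, PLAU and SERPINE2, and PLAUR and F13A1, whose FPKM ranges share values. In H24, SERPINE2 moved up to rank 4 from rank 6 in NC, and F13A1 to rank 2 from rank 8. The rank of F13A1 in H24 rests on replicate 3, since the other two H24 libraries were at 2.73 and 4.86 FPKM.

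F3 encodes tissue factor, the membrane receptor that triggers coagulation. Its gene lies on chromosome 4 of Sscrofa11.1, from 122826644 to 122840508 on the + strand. F3 was at 6.75, 11.6 and 10.9 FPKM in NC replicates 1 to 3, at 13.7, 30.4 and 20.7 FPKM in H8 and at 11.8, 10.1 and 7.68 FPKM in H24. All H8 libraries were higher than all libraries of the other groups, which overlapped each other. F3 had a log2 fold change of 1.31 in H8/NC (standard error 0.36, adjusted p = 0.211) and -1.33 in H24/H8 (standard error 0.38, adjusted p = 0.336). Without H8 replicate 2 it was 0.88 in H8/NC and -0.91 in H24/H8, both short of the fold threshold, with unadjusted p-values of 0.0209 and 0.0271 in edgeR's quasi-likelihood test. In H24/NC the log2 fold change of F3 was -0.01, with a 95% interval of -0.69 to 0.67.
The level of F3 went together with the summed markers of fibroblasts, the matrix-producing cells of the outer vessel wall. The 7 fibroblast markers summed to 2984 to 3822 FPKM in NC, 4687 to 7645 FPKM in H8 and 3308 to 3955 FPKM in H24. The 3 collagen genes among them had the highest levels of the list in every library and so weigh most in the sum. The H8 libraries had the same order in F3 and in these markers, with replicate 2 highest and replicate 1 lowest. Of the 7 markers, 3 were called up-regulated in H8/NC and 2 in H24/NC. The part of these markers in the F3 result was not tested.

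TFPI, the plasma and endothelial inhibitor of the tissue factor complex, was close to the detection limit. It lies on chromosome 15, from 92344837 to 92409986 on the - strand, and this span covers 100% of the RefSeq gene of that name on the same assembly. TFPI was at 0.0968, 0.0775 and 0 FPKM in NC replicates 1 to 3, at 0.0859, 0.0532 and 0.0480 FPKM in H8 and at 0.135, 0.250 and 0.117 FPKM in H24. These values rest on 0 to 29 counts in NC, 16 to 27 in H8 and 32 to 50 in H24. The 3 H24 libraries were higher than all others, while NC and H8 overlapped. TFPI had a log2 fold change of 1.47 in H24/NC, but its 95% interval ran from -1.49 to 4.43 (adjusted p = 0.652), and in H24/H8 it was 1.22 with an interval of -0.46 to 2.91 (adjusted p = 0.460). Without a dispersion trend TFPI was called up-regulated in H24/H8, at 1.22 with an unadjusted p of 0.0342 (edgeR's quasi-likelihood test). In H8/NC the gene was under the expression filter and was not tested.
TFPI2, a related inhibitor of the vessel matrix that is no member, was far higher per length, with means of 27.4 ± 3.08 FPKM in NC, 44.1 ± 16.4 FPKM in H8 and 33.4 ± 1.86 FPKM in H24 (SD, n = 3).

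THBD and PROCR form the protein C pathway of the endothelium. Neither was called in any comparison. THBD lies on chromosome 17, from 30220162 to 30223499 on the - strand, and was at 23.2, 36.2 and 25.1 FPKM in NC replicates 1 to 3, at 21.1, 44.3 and 7.22 FPKM in H8 and at 33.4, 28.0 and 15.4 FPKM in H24. The lowest and the highest values of the series were both in H8, a 6.13-fold range, and the groups overlapped. THBD had a log2 fold change of -0.18 in H24/NC (95% interval -0.98 to 0.63) and -0.04 in H8/NC (95% interval -1.45 to 1.37).
PROCR lies on the same chromosome, from 38532508 to 38539375 on the + strand. It was at 10.0, 9.66 and 7.46 FPKM in NC, at 8.36, 21.3 and 5.38 FPKM in H8 and at 9.78, 15.8 and 2.67 FPKM in H24. NC libraries lay within a 1.34-fold range, while those of H8 and H24 spread 3.97-fold and 5.93-fold around them. Its log2 fold change was 0.04 in H24/NC (95% interval -1.30 to 1.39) and 0.56 in H8/NC (95% interval -0.64 to 1.75). H24 replicate 3, which had the lowest PROCR of the series, also had the lowest sum of the 8 endothelial markers. The sum was 94.1 FPKM against 178.9 and 184.7 FPKM in H24 replicates 1 and 2. The single markers differed. PECAM1, CDH5, VWF, TIE1, ERG and ESAM were lowest of H24 in replicate 3, TEK lay between replicates 1 and 2, and KDR was highest of the series, at 4.07 FPKM. H8 replicate 2, with the highest PROCR of the series, had 122.1 FPKM of these markers, the lowest sum of H8. Their part in the PROCR result was not tested. None of the 8 endothelial markers was called in any comparison.

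F13A1 encodes the A chain of factor XIII, which in tissue is known as a product of macrophages. It lies on chromosome 7, from 3750642 to 3901444 on the - strand. F13A1 was at 0.818, 0.998 and 2.11 FPKM in NC replicates 1 to 3, at 0.933, 1.40 and 1.05 FPKM in H8 and at 2.73, 4.86 and 72.5 FPKM in H24. The H24 libraries were higher than all others but differed 26.6-fold among themselves, and H8 overlapped NC. F13A1 had a log2 fold change of 4.34 in H24/NC (standard error 1.32, adjusted p = 0.227) and 4.34 in H24/H8 (standard error 1.26, adjusted p = 0.336). Without H24 replicate 3 these values were 1.53 (adjusted p = 0.244) and 1.58 (adjusted p = 0.341, edgeR's quasi-likelihood test), still past the thresholds on fold and unadjusted p. In limma on log2(FPKM + 1) the call in H24/NC was lost, at a log2 difference of 2.38 and an unadjusted p of 0.0531. In H8/NC the log2 fold change was -0.06, with a 95% interval of -1.03 to 0.91.
The 12 macrophage markers, none of them at 0 in all libraries, summed to 28.1 to 36.7 FPKM in NC, 37.6 to 208.4 FPKM in H8 and 203.4 to 2192 FPKM in H24. All 12 were called up-regulated in H24/NC and 8 of the 11 tested in H8/NC. H8 replicate 1 had 208.4 FPKM of these markers and 0.933 FPKM of F13A1, whereas H24 replicate 2 had 203.4 FPKM of them and 4.86 FPKM of F13A1. How much of the F13A1 result belongs to the macrophage markers was not tested.

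**Figure D2:**
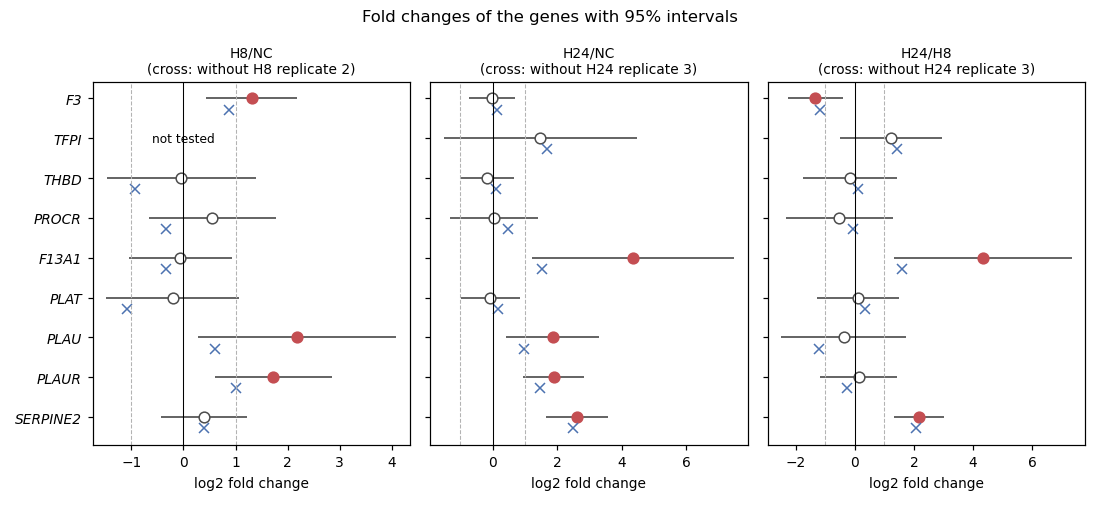
Log2 fold change of each gene (circle, filled where the gene was called) with its 95% interval (line) in H8/NC, H24/NC and H24/H8, and the value without the library named above each panel (cross). SERPINE2 keeps nearly the same value without H24 replicate 3 (2.48 against 2.61 in H24/NC), while F13A1 moves from 4.34 to 1.53 and PLAU from 1.86 to 0.97.

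PLAT, tissue-type plasminogen activator, is the activator that endothelium releases into blood. It lies on chromosome 17, from 11196253 to 11210458 on the - strand, a span that covers 50.3% of the RefSeq gene on the same assembly. PLAT was at 33.0, 66.6 and 44.4 FPKM in NC replicates 1 to 3, at 25.5, 66.8 and 18.0 FPKM in H8 and at 43.9, 64.6 and 31.4 FPKM in H24. Replicate 2 was the highest of each group and all groups overlapped. The log2 fold change was -0.07 in H24/NC (95% interval -0.96 to 0.82) and -0.21 in H8/NC (95% interval -1.47 to 1.05). In H8/NC it was -1.08 without H8 replicate 2, with an unadjusted p of 0.0199 (adjusted p = 0.314, edgeR's quasi-likelihood test), which made PLAT a down-regulated call in that setting.

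PLAU, urokinase, acts on cell surfaces and in the matrix rather than in the blood stream. It lies on chromosome 14, from 76629275 to 76635894 on the + strand. PLAU was at 5.36, 3.35 and 8.12 FPKM in NC replicates 1 to 3, at 9.64, 49.4 and 6.59 FPKM in H8 and at 12.4, 9.97 and 39.1 FPKM in H24. The H24 libraries lay above NC without overlap, while H8 overlapped NC, and a single library in each diet group was several times higher than the others. The log2 fold change was 1.86 in H24/NC (standard error 0.59, adjusted p = 0.250) and 2.18 in H8/NC (standard error 0.81, adjusted p = 0.285). Without H24 replicate 3 the value in H24/NC was 0.97 (unadjusted p = 0.0270), and without H8 replicate 2 the value in H8/NC was 0.61 (unadjusted p = 0.151, edgeR's quasi-likelihood test). Both calls were also lost without NC replicate 1 or NC replicate 2, where the log2 fold changes stayed between 1.61 and 2.14. With all 9 libraries in a single edgeR fit the call in H24/NC was lost at an unadjusted p of 0.0520, and with the replicate number as a block the value in H8/NC was 1.5008 and not called. In limma the H8/NC call was lost too, at 1.46 (unadjusted p = 0.0748) with a pseudocount of 0.1 and 1.34 (unadjusted p = 0.0825) with a pseudocount of 1.

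PLAUR, the urokinase receptor of leukocytes and other migrating cells, lies on chromosome 6, from 50485313 to 50505318 on the - strand. It was at 1.39, 2.003 and 1.81 FPKM in NC replicates 1 to 3, at 4.00, 8.62 and 2.63 FPKM in H8 and at 4.14, 5.56 and 9.89 FPKM in H24. Every library of either diet group was higher than every NC library, and the diet groups overlapped each other. The log2 fold change was 1.73 in H8/NC (standard error 0.47, adjusted p = 0.210) and 1.89 in H24/NC (standard error 0.39, adjusted p = 0.132). Both calls held when any 1 library was left out, with log2 fold changes of 1.002 to 2.06 in H8/NC and 1.46 to 2.15 in H24/NC. The lowest of these were those without H8 replicate 2 and without H24 replicate 3. In H24/H8 the log2 fold change of PLAUR was 0.13, with a 95% interval of -1.15 to 1.41.
PLAU and PLAUR were highest in the same library of each diet group, H8 replicate 2 and H24 replicate 3. These 2 libraries differed in macrophage markers, at 37.6 and 2192 FPKM, the lowest value of H8 and the highest of the series. The part of macrophage markers in the PLAU and PLAUR results was not tested.

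**Figure D3:**
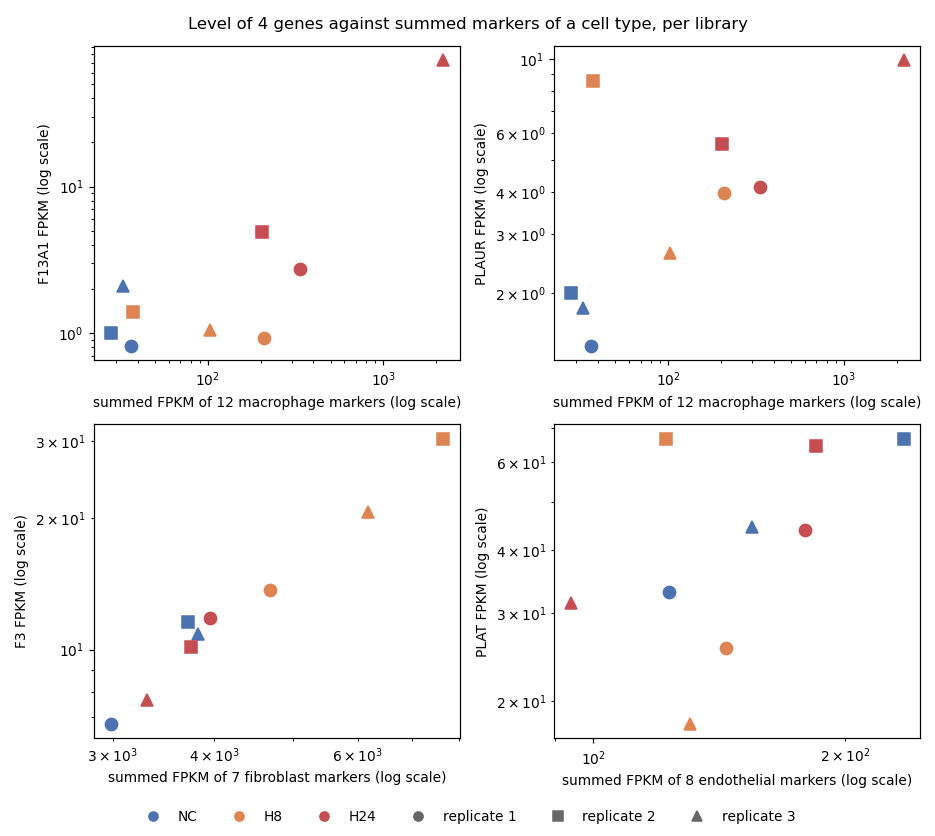
FPKM of 4 genes (y axis, log scale) against the summed FPKM of markers of a cell type (x axis, log scale) in each of the 9 libraries, with colours for groups and symbols for replicates. F3 climbs with the summed fibroblast markers from 6.75 FPKM at 2984 to 30.4 FPKM at 7645. PLAUR is at 8.62 FPKM in an H8 library with 37.6 FPKM of macrophage markers.

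SERPINE2, protease nexin 1, is a serpin that stays bound to cells and matrix and is made by smooth muscle cells and fibroblasts. It lies on chromosome 15, from 125747294 to 125816215 on the - strand. SERPINE2 was at 2.95, 4.70 and 2.30 FPKM in NC replicates 1 to 3, at 5.37, 3.61 and 3.01 FPKM in H8 and at 25.2, 13.04 and 24.4 FPKM in H24. All H24 libraries were at least 13.04 FPKM and no other library exceeded 5.37 FPKM, while H8 and NC overlapped. Its log2 fold change was 2.61 in H24/NC (standard error 0.39, adjusted p = 0.132) and 2.19 in H24/H8 (standard error 0.35, adjusted p = 0.286). Leaving out any 1 library kept both calls, with log2 fold changes of 2.39 to 2.98 in H24/NC and 1.99 to 2.42 in H24/H8. Without H24 replicate 3 the adjusted p in H24/NC was 0.0231 (edgeR's quasi-likelihood test), the only edgeR value under 0.05 of a member in any setting run. In H8/NC the log2 fold change was 0.40, with a 95% interval of -0.41 to 1.21. H24 replicate 1, with the highest SERPINE2, had 8538 FPKM of smooth muscle markers, and H24 replicate 3, with 24.4 FPKM of SERPINE2, had 1803 FPKM of them. H24 replicate 2, with 13.04 FPKM of SERPINE2, had 12384 FPKM of them. The part of these markers in the SERPINE2 result was not tested.

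Ratios of 2 genes within a library were described as log2 of their FPKM ratio, without a test. F3 was lower than THBD in all NC and H24 libraries, with mean log2 ratios of -1.55 ± 0.30 in NC and -1.32 ± 0.28 in H24 (SD, n = 3). In H8 the ratios were -0.62, -0.54 and 1.52, all above those of NC and H24. PLAT exceeded PLAU 5.48-fold to 19.8-fold in NC, 1.35-fold to 2.74-fold in H8 and 0.803-fold to 6.48-fold in H24. The 3 H8 ratios lay below NC without overlap, and in H24 replicate 3 PLAU exceeded PLAT. The tissue factor to TFPI ratio, over the libraries with TFPI above 0, had a mean log2 of 6.67 in NC (n = 2), 8.41 ± 0.97 in H8 and 5.94 ± 0.56 in H24 (SD, n = 3), and rests on the few counts of TFPI.

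**Figure D4:**
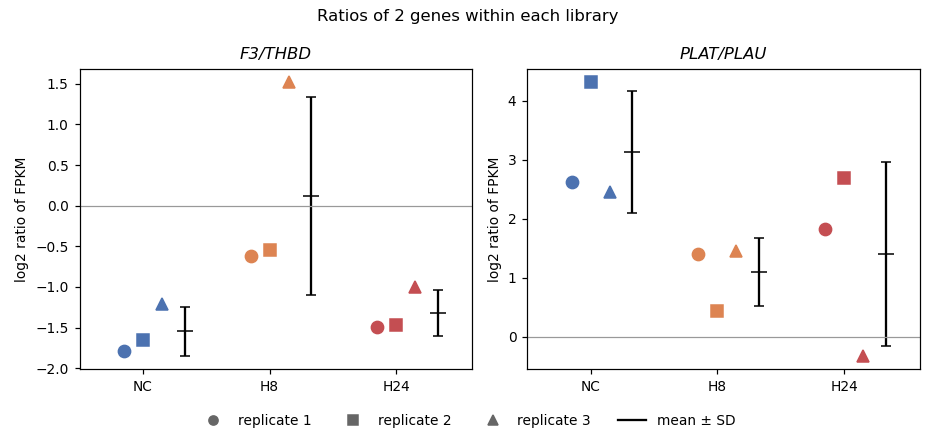
Log2 ratio of the FPKM of F3 to THBD (left) and of PLAT to PLAU (right) in each library (symbols), with mean ± SD (bars, n = 3); the line at 0 marks equal FPKM. The F3/THBD ratio of all H8 libraries, from -0.62 to 1.52, lies above those of NC and H24, and the PLAT/PLAU ratio lies below 0 only in H24 replicate 3.

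The other genes of coagulation, fibrinolysis and platelets were followed with 5 lists of 55 genes, of which 50 were in the table. In H24/NC, 4 of the 36 tested were called up-regulated, near the 9.95% of all genes, and none down-regulated, with a median log2 fold change of 0.34 against 0.01 over all genes. In H8/NC, 3 of the 32 tested were called up-regulated and 2 down-regulated, against 5.11% and 2.27% of all genes, with a median of 0.17 against 0.01. None had an adjusted p under 0.05 in edgeR's quasi-likelihood test.

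Of the procoagulant factors, 15 of 18 were in the table and 9 were tested in H24/NC. F5, the cofactor that speeds thrombin formation, was the only one called there. It was at 0.338 to 0.367 FPKM in NC, 0.453 to 0.967 FPKM in H8 and 1.58, 3.29 and 14.1 FPKM in H24 replicates 1 to 3, so that none of the groups overlapped. Its log2 fold change was 4.17 in H24/NC (adjusted p = 0.132) and 1.04 in H8/NC (adjusted p = 0.242). Without H24 replicate 3 it was 2.79 in H24/NC (adjusted p = 0.0159, edgeR's quasi-likelihood test). TGM2, a tissue transglutaminase that crosslinks proteins as factor XIII does, had -1.06 in H24/NC (adjusted p = 0.401) and F12 had 1.02 (adjusted p = 0.482), neither of them called. F2, prothrombin, was called down-regulated in H8/NC at -1.32 (adjusted p = 0.258), with no NC library above 1.06 FPKM. The liver-made factors F7, F9, F11 and KLKB1 were at most 0.0640 FPKM in any library.

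Of the 6 anticoagulant genes tested in H24/NC, none was called. PROS1 (protein S, the cofactor of activated protein C) had a log2 fold change of 0.53 (95% interval -0.10 to 1.15), TFPI2 had 0.26 (95% interval -0.18 to 0.70) and ANXA5 had 0.31 (95% interval -0.36 to 0.99). SERPINC1 (antithrombin) had 1.72 (95% interval -0.09 to 3.54) at no more than 0.204 FPKM. SERPIND1 (heparin cofactor 2), named after its values were seen, was called down-regulated in H8/NC at -1.32 (adjusted p = 0.268), a call that was lost without H8 replicate 2 (-0.99).
The receptors for thrombin and related proteases had 4 tested genes. F2R, the main thrombin receptor, had 0.72 in H24/NC (95% interval 0.15 to 1.29), and LRP1, which clears protease-inhibitor complexes, had 0.62 (95% interval 0.01 to 1.23), both under the fold threshold. F2RL1 was called up-regulated in H8/NC at 1.46 (adjusted p = 0.220) at a level of 0.532 to 0.916 FPKM in H8, and F2RL2 had 0.75 there (adjusted p = 0.459).

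Among 10 fibrinolytic genes tested in H24/NC, S100A10 and A2M were called up-regulated. S100A10, a partner of annexin 2 in binding plasminogen, was at 5.73 to 9.08 FPKM in NC and at 16.2, 15.0 and 52.4 FPKM in H24 replicates 1 to 3, with a log2 fold change of 1.80 (adjusted p = 0.220), which was 0.95 and no longer called without H24 replicate 3. A2M, a broad protease inhibitor whose groups overlapped, was at 245 to 345 FPKM in NC and at 955, 770 and 341 FPKM in H24, with 1.14 (adjusted p = 0.323), which was 1.46 without H24 replicate 3 (adjusted p = 0.0228, edgeR's quasi-likelihood test). H24 replicate 3 was the highest for S100A10 and the lowest for A2M. PLGRKT, a plasminogen receptor, had 0.93 (95% interval -0.22 to 2.08). PLG itself was at most 0.0687 FPKM.
Of 7 platelet genes tested in H24/NC, ITGB3, an integrin chain that platelets share with macrophages and vascular cells, was called up-regulated. It was at 2.34 to 2.67 FPKM in NC, 3.52 to 5.99 FPKM in H8 and 6.24, 6.41 and 37.1 FPKM in H24, with a log2 fold change of 2.73 (adjusted p = 0.182), which was 1.33 without H24 replicate 3 (adjusted p = 0.0298, edgeR's quasi-likelihood test). Its platelet partner ITGA2B had -0.37 (95% interval -0.87 to 0.13), SELP had 0.56 (95% interval -0.64 to 1.76), and GP6 was under 1 FPKM in all libraries.
In H24/H8, 4 of the 35 tested were called up-regulated, against 7.22% of all genes, namely F5 (3.08, adjusted p = 0.336), ITGB3 (1.70, adjusted p = 0.361), F8 (1.09, adjusted p = 0.336) and GP1BB, which was listed at 0 in every H8 library and at 0.144, 0.710 and 0.0962 FPKM in H24. Without H24 replicate 3, F5 was at 1.75 there and ITGB3 at 0.34, which ended the ITGB3 call, and without H8 replicate 2 that call was lost as well, at 1.65. F8 and GP1BB were named after their values were seen.

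**Figure D5:**
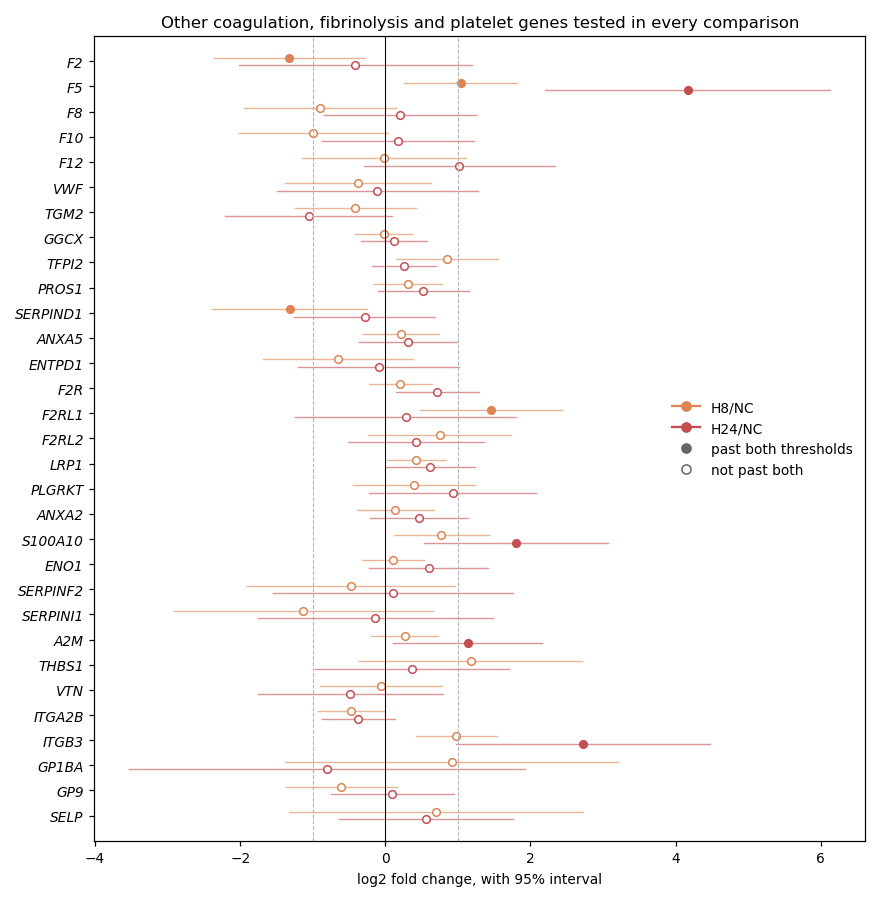
Log2 fold change with 95% interval (x axis) of 31 listed genes of coagulation, fibrinolysis and platelets that were tested in every comparison, in H8/NC (orange) and H24/NC (red), filled where called. Of the genes plotted, F5 has the highest value in H24/NC (4.17) and F2RL1 in H8/NC (1.46).

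For each member, the genes with the most similar profile over the 9 libraries were looked up by Pearson's r of log2(CPM + 0.5) among 9741 named genes with a mean of at least 1 FPKM. The libraries share group, depth and cell makeup, and the values are the highest of many, so they are a description. SERPINE2 was closest to LUM (r = 0.984), a collagen-binding proteoglycan that is also in the fibroblast list, and to S100A4 (r = 0.974) and TNFRSF11B (r = 0.968). F3 was closest to ITGBL1 (r = 0.966), COL3A1 (r = 0.964), which is also in the fibroblast list, and IER5 (r = 0.936). F13A1 was closest to GPX1 (r = 0.987), SMPD2 (r = 0.980) and HSD3B7 (r = 0.977). Without H24 replicate 3, where F13A1 was far higher than elsewhere, these were 0.955, 0.874 and 0.906.
PLAUR was closest to BDKRB1 (r = 0.972), a kinin receptor, then to METRNL (r = 0.944) and IRF7 (r = 0.941), and PLAU to RELT (r = 0.954) and TAOK1 (r = 0.943). PLAT was closest to SIGIRR (r = 0.930), NOP53 (r = 0.915) and EMCN (r = 0.909), the last an endothelial sialomucin, and THBD to HEG1 (r = 0.914), DEPP1 (r = 0.899) and DAAM1 (r = 0.897). PROCR was closest to C1orf122 (r = 0.949), PHF13 (r = 0.947) and DENND2A (r = 0.940), and TFPI to CCL14 (r = 0.946), NOL4L (r = 0.940) and GPR137 (r = 0.932). After the group means were removed, F3 had an r of 0.922 with ITGBL1, 0.979 with COL3A1 and 0.818 with IER5. PLAUR had 0.982 with BDKRB1, 0.901 with METRNL and 0.837 with IRF7. SERPINE2 had 0.850 with LUM, 0.716 with S100A4 and 0.636 with TNFRSF11B.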

How the data were processed

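RNA-seq libraries of abdominal aorta from Tibetan minipigs, 9 in all, were grouped by their labels into NC, H8 and H24. According to the methods, the authors aligned reads to Sscrofa11.1 with HISAT and computed FPKM with StringTie. The submitters' processing notes list HISAT2 2.0, StringTie 1.3.0, Bowtie 0.12.2 and mm8, and no step using Bowtie or mm8 is described. Beside FPKM, the authors deposited whole-number estimated counts, and how these were derived is not given in the sources used here, nor is the annotation release or the use of strand.
Counts were tested with edgeR 4.0.16 (R 4.3.3) over the whole table, in the libraries of both groups compared, for genes reaching a mean of 0.1 FPKM in them. TMM scaling, a dispersion trend and a two-sided quasi-likelihood test were used. Standard errors and 95% intervals were derived from the test statistic. Members, markers and pathway lists were chosen with earlier results of these data known. Up to 4 genes of each pathway list, those with the lowest p-values in H24/NC, are named, and others are marked as named after their values were seen. F7, F9, F11, KLKB1 and PLG are named only for levels near 0, also after these were seen. All 9 members were matched by name, and 2 listed genes by gene ID. Some named results are not reported here, while counts over lists cover all listed genes. ADIPOQ, PLIN1, FABP4, LPL, LUM and PDGFRA were likewise picked with their levels known. The script was tested on simulated counts. Alternatives were other scalings and filters, DESeq2 1.42.0, limma 3.58.1, all 9 libraries in a single fit, no dispersion trend, a replicate block, summed rows of a name, FPKM rescaled to TPM, ratios from CPM and each replicate left out. An exact permutation test of 3 against 3 cannot go below p = 0.1 and was not used.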

Additional observations from a re-analysis of the deposited data

Results flagged for a closer look

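The levels at 8 and 24 weeks of high-fat diet were compared directly in the test of H24 against H8, and 3 members passed its thresholds on fold and p before adjustment. Diet duration and age cannot be told apart in it. F3 was lower in H24 than in H8, with a log2 fold change of -1.33, in 3 of 3 libraries, and this value was -0.91 without H8 replicate 2. SERPINE2 was higher in H24, at 2.19, in 3 of 3 libraries. F13A1 was higher in H24, at 4.34, in 3 of 3 libraries, and this value was 1.58 without H24 replicate 3. The adjusted p-values were 0.336, 0.286 and 0.336 in edgeR's quasi-likelihood test, and 0.0422, 5.85e-06 and 0.00195 in DESeq2.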

How the results depend on the processing

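The calls of SERPINE2 and PLAUR in H24/NC, PLAUR in H8/NC and SERPINE2 and F13A1 in H24/H8 were made under every alternative run. DESeq2 gave adjusted p-values under 0.05 to 4 members in H24/NC, 2 in H8/NC and 3 in H24/H8, where edgeR gave them to none, and to 3, 2 and 2 pathway genes. Over all genes DESeq2 gave them to 6.77%, 5.66% and 4.79%. It also called 1 pathway gene down-regulated in H24/NC, as did the fit of all 9 libraries. Ratios and levels moved by less than their spread in other units, which was nearly fixed in advance. Between FPKM and CPM, gene length and library total largely cancel in the group difference of a ratio, and TPM only rescales each library. With 3 libraries a group, intervals were wide for members with a divergent library. Where the value changed, the cause was not tested.
The replicate block left 4 members up-regulated in H24/NC, 2 in H8/NC, where PLAU lost its call, and 2 in H24/H8, and 1 pathway gene in H8/NC in place of 3. Without a dispersion trend 3 members were up-regulated in H24/H8, TFPI among them. Same-numbered libraries did not deviate together in every pair (r of -0.092 to 0.101), so the numbers were not taken as pairs. Under the block, log2 fold changes turned in sign for F3 (0.0134) and PROCR (-0.28) in H24/NC, F13A1 in H8/NC (0.0314), and THBD (0.19) and PLAU (0.0617) in H24/H8.
None of the members whose values turned in sign was called in that comparison as reported. F3 in H24/NC, at -0.01, was 0.0276 with library size alone, 0.0158 at a mean of at least 1 FPKM, 0.0014 in the fit of all 9 libraries, and 0.0387 and 0.0339 in limma with a pseudocount of 0.1 and 1. In the same order of pseudocounts, limma gave PROCR in H24/NC -0.26 and -0.19, THBD in H24/H8 0.36 and 0.33, and PLAU in H24/H8 0.20 and 0.18. Library size alone gave THBD in H24/H8 0.10. The up-regulated pathway genes in H8/NC numbered 1 at a mean of at least 1 FPKM and 1 and 0 in limma, and the down-regulated ones, 2 at first, 4 with library size alone, 4 with no filter, 1 at a mean of at least 1 FPKM and 0 in limma with a pseudocount of 1. This last setting gave 2 up-regulated pathway genes in H24/H8.
Leaving out 1 library gave 3 to 4 up-regulated members in H24/NC, with 0 to 1 past the adjusted threshold, 1 to 3 up-regulated and 0 to 1 down-regulated in H8/NC, and 0 to 1 down-regulated in H24/H8. For the pathway genes it gave 0 to 3 down-regulated and 0 to 3 past the adjusted threshold in H24/NC, 2 to 5 up-regulated and 0 to 5 down-regulated in H8/NC, and 2 to 5 up-regulated and 0 to 1 down-regulated in H24/H8. Log2 fold changes that turned in sign ranged in H24/NC from -0.23 to 0.16 for F3, -0.38 to 0.0884 for THBD, -0.41 to 0.27 for PLAT and -0.60 to 0.49 for PROCR. In H8/NC they ranged from -0.92 to 0.41 for THBD, -1.08 to 0.14 for PLAT, -0.33 to 0.45 for F13A1 and -0.33 to 0.92 for PROCR. In H24/H8 they ranged from -0.61 to 0.73 for THBD, -0.24 to 0.99 for PLAT, -1.22 to 1.19 for PLAU, -0.27 to 0.85 for PLAUR and -1.19 to 0.36 for PROCR.
Without both H24 replicate 3 and H8 replicate 2, a setting chosen after seeing the data, F3 lost its call in H24/H8, which left 0 members down-regulated, PLAT was called up-regulated at 1.22, 6 pathway genes were up-regulated, and THBD, PLAU and PROCR turned to 1.0022, 0.35 and 0.81.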
